A study of Mus musculus with 30 samples.

Results

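H3K27ac peaks of 2 mouse lung adenocarcinoma lines, CK1750 and Tnm2, were compared while both grew with UNC0638, which blocks the enzymes G9a and Glp. The members were the peaks of the 2 merged H3K27ac lists that the sample labels assign to the lines with UNC0638. They numbered 24601 peaks for CK1750 and 18794 for Tnm2, 43395 of the 101403 peaks in the 4 H3K27ac lists of the series, and came from 4 of its 30 samples. The rest of the series holds the same lines with the solvent DMSO, H3K9me2 and input DNA. Both lines grew in DMEM with fetal bovine serum and received UNC0638 at 1 µM. The 2 CK1750 samples with UNC0638 carried the same replicate number, 1 of them marked as a sequencing run, and the 2 Tnm2 samples carried different numbers. CK1750 was made in the laboratory of the study and is described there as like tumor-propagating cells (TPCs), the cells able to found new tumors, and Tnm2 was obtained from another laboratory. Each line is a single model, so a difference between them is a difference between these 2 cultures.

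H3K27ac is acetylation of lysine 27 on histone H3 and marks active promoters and active enhancers, the distal elements that drive a gene. G9a, encoded by Ehmt2, and Glp, encoded by Ehmt1, place methyl groups on lysine 9 of the same histone, the H3K9me2 mark of silent chromatin. In lung adenocarcinoma, the transcription factor Nkx2-1 keeps tumor cells in a lung state, and its loss is known to bring up gastric genes.

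Promoter sequences of genes with a strong promoter peak in 1 line and none in the other are shown first, because the share of CpG dinucleotides differed between the promoter peaks of the lines. Each runs 5′ to 3′ on the gene's strand, from 250 bases before the annotated start to 50 after it, is taken from RefSeq (build GRCm38.p6), and has its CpG dinucleotides in capitals. The first 3 had a peak only in CK1750. Sox2 (chr3:34649745-34650044, plus strand) encodes a transcription factor of airway epithelium and of pluripotent cells, Ptger4 (chr15:5244138-5244437, minus strand) a receptor for prostaglandin E2, and Foxd1 (chr13:98353995-98354294, plus strand) a forkhead transcription factor of kidney stroma. The other 3 had a peak only in Tnm2. Dlx2 (chr2:71546705-71547004, minus strand) encodes a homeobox transcription factor, Sspn (chr6:145933872-145934171, plus strand) sarcospan of the dystrophin complex, and Cldn18 (chr9:99710014-99710313, minus strand) a tight junction claudin of alveolar and gastric epithelium.
Sox2: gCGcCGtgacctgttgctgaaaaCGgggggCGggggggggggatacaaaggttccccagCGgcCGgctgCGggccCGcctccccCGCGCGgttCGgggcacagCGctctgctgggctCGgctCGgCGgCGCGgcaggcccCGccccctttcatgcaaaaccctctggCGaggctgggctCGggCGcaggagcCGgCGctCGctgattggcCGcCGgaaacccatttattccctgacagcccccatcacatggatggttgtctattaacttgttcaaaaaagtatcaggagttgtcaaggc
Ptger4: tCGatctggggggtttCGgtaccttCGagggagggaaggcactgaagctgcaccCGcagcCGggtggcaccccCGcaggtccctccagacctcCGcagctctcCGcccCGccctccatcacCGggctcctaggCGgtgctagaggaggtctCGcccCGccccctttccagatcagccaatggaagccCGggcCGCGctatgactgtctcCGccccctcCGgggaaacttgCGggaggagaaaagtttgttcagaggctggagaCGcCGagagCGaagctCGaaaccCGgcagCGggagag
Foxd1: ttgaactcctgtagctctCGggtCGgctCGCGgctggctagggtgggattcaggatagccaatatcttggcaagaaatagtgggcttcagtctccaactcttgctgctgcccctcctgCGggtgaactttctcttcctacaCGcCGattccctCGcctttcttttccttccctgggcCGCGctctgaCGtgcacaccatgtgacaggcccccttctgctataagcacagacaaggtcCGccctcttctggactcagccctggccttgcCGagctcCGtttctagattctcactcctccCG
Dlx2: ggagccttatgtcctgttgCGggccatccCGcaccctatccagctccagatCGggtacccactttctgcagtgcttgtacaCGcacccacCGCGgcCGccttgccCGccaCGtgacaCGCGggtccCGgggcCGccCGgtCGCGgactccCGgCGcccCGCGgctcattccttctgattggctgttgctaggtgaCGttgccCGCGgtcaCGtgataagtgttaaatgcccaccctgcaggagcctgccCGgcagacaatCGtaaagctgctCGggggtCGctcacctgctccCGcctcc
Sspn: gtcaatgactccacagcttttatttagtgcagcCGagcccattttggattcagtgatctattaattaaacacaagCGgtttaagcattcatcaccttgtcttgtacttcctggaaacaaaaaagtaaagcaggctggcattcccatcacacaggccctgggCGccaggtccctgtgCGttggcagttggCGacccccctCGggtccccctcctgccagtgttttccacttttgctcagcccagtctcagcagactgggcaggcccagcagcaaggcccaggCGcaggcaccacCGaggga
Cldn18: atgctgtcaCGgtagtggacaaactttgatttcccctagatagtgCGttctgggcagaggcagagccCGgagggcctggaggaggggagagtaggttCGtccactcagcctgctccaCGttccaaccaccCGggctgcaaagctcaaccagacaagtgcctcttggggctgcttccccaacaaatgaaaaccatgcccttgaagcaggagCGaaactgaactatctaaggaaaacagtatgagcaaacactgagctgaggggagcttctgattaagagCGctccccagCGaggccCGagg
The windows held 27, 25 and 15 CpG dinucleotides at Sox2, Ptger4 and Foxd1, and 29, 8 and 10 at Dlx2, Sspn and Cldn18. The annotated start lay inside the peak for 5 of these genes. At Dlx2 it lay 471 bp outside the peak's edge.

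Each group had 1 pooled list, so no value has a spread between replicates and no difference between the lines could be tested. Sequencing depth is unknown. The 95% intervals given were computed by Wilson's method and reflect nothing but counting error. A peak's score is −10 log10 of its P value from the authors' peak caller, and because it grows with depth, peaks were compared by their rank within a list (1 is the highest score) and among equal numbers of peaks. The 18794 highest-scoring peaks were kept in each line. The score at the last kept peak was 81.7 in CK1750 and 50 in Tnm2, which is the cutoff of the peak caller, and at peak 5000 it was 642 and 229. At equal rank the CK1750 scores were thus the higher, and the part of depth in this was not tested.

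The labelled cell type was checked against marker genes. Promoter peaks were present at 5 of 9 lung adenocarcinoma epithelium markers in CK1750 and at 6 of 9 in Tnm2. Among all genes, 48.2% had a promoter peak in CK1750 and 40.2% in Tnm2, so these counts alone say little about cell type. The marker with a peak in Tnm2 only was Sftpb, at a score of 77.4. Nkx2-1 had peaks in both, at rank 2955 in CK1750 and 472 in Tnm2. Krt8, Krt18, Krt19 and the adherens junction gene Cdh1 also had peaks in both lines, as had Vim, Zeb1 and Cdh2, the 3 markers of a mesenchymal state. The promoters of Sftpc, Napsa and Epcam, defining genes of alveolar type 2 cells and of epithelium, had no peak in either list. The 5 leukocyte and 3 endothelial markers had none as well, and of 5 fibroblast markers only Col1a1 had one, in CK1750 at a score of 51.9.

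Strong peaks were shared between the lines almost without exception, and the lists parted among weak peaks. With equal numbers, 5234 CK1750 peaks (27.8%, interval 27.2 to 28.5%) overlapped no Tnm2 peak, and 4448 Tnm2 peaks (23.7%, interval 23.1 to 24.3%) overlapped no CK1750 peak. For 1175 of the 4448, the CK1750 list held an overlapping peak ranked below the number kept. Among ranks 1 to 1000, 2 CK1750 peaks and 1 Tnm2 peak had no partner in the other line's whole list. Beyond rank 10000, the share without a partner in the whole list was 50.3% in CK1750 and 32.4% in Tnm2, and the whole CK1750 list, in which the Tnm2 peaks were sought, is the longer one. With equal numbers the Tnm2 share there was 42.8%, and the CK1750 share was the same. Between ranks 1000 and 5000 the shares with equal numbers were 1.88% in CK1750 and 2.03% in Tnm2.

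**Figure D1:**
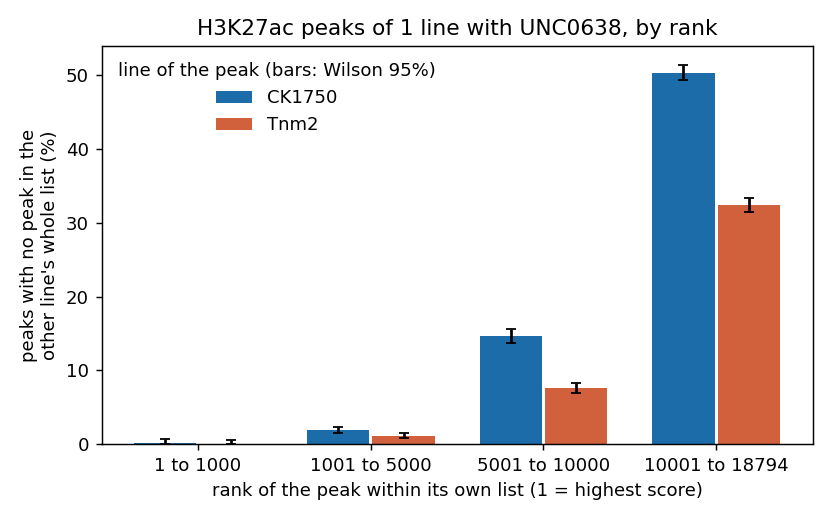
Share of peaks (%, vertical axis) with no overlapping peak in the whole list of the other line, by rank of the peak in its own list (horizontal axis), for CK1750 and Tnm2 with UNC0638; error bars are Wilson 95% intervals. Both lines climb from at most 0.2% in ranks 1 to 1000 to 50.3% and 32.4% in the last step, and the gap depends on the unequal length of the lists, since with equal numbers the last Tnm2 share was 42.8%.

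Peaks found in 1 line lay at promoters less often than shared peaks. A promoter was taken as 1 kb on each side of a transcription start site (TSS). Of CK1750-only peaks, 41.4% lay at a promoter (interval 40.1 to 42.8%), and of Tnm2-only peaks 21.7% (interval 20.5 to 22.9%). Shared peaks did so at 62.8% in the CK1750 list and 61.6% in the Tnm2 list. Among peaks ranked beyond 10000, the shares in CK1750 were alike, at 39.6% of line-only and 40.4% of shared peaks, while in Tnm2 they were 20.4% and 49.5%. Peaks found in 1 line were also narrower, with a median width of 941 bp against 1436 bp for shared peaks in CK1750, and of 789 bp against 1154 bp in Tnm2. Most peaks found in 1 line were weak, with 4426 in CK1750 and 3762 in Tnm2 ranked beyond 10000. Widths were not compared among peaks of like rank.

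The DMSO lists, which did not choose these peaks, were searched at the same places. Of the 5234 CK1750-only peaks, 79.8% overlapped a DMSO peak of CK1750 and 61.2% one of Tnm2. Of the 3273 Tnm2-only peaks with no peak in the whole CK1750 list, 66.8% overlapped a DMSO peak of Tnm2 and 22.2% one of CK1750. These shares depend on list length, because the DMSO lists held 27367 peaks in CK1750 and 30641 in Tnm2. With the DMSO lists reduced to their 18794 highest-scoring peaks, they were 60.8 and 34.8% for CK1750-only peaks, and 48.5 and 15.1% for all 4448 Tnm2-only peaks. In the whole DMSO lists, no peak of either line was present at 11.1% of the CK1750-only and 28.8% of the Tnm2-only peaks. The shares for shared peaks are not set beside these, so they are not read as high or low.

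Promoters of 8276 of 21728 protein-coding genes (38.1%) had a peak in both lines. A peak in CK1750 only was seen at 1566 genes (7.21%) and in Tnm2 only at 449 genes (2.07%), and 11437 genes had none. The DMSO lists were compared in the same way, with 27367 peaks each. Of the 1566 CK1750-only promoters, 1078 (68.8%) had a peak in both lines with DMSO and 380 in CK1750 only. Of the 449 Tnm2-only promoters, 205 (45.7%) had one in both lines with DMSO and 157 (35.0%) in Tnm2 only. Among all 21728 genes, 44.7% had a DMSO peak in both lines, 4.34% in CK1750 only and 2.34% in Tnm2 only. The 45.7% thus lay close to the share of all genes.

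Clear cases were the promoters with a peak among the 5000 highest-scoring of 1 line and no peak at all of the other line in the promoter window. They numbered 42 genes (0.193% of all genes) for CK1750 and 18 (0.0828%) for Tnm2. At 14 of the 42 and 6 of the 18, the same peak reached beyond the promoter window and overlapped a peak of the other line there, so that 28 and 12 genes had a peak that stood apart. A DMSO promoter peak of the other line was present at 34 of the 42 and at 8 of the 18. Among all genes, 48.1% had a DMSO promoter peak in Tnm2 and 49.0% in CK1750, so the 8 of 18 are near the share of any gene.

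Sox2 was the widest of the clear CK1750 promoters named here. Its peak (chr3:34649925-34657846, 7922 bp, inside the noncoding gene Sox2ot) ranked 526 at a score of 2796.27 and covered the Sox2 TSS. The nearest Tnm2 peak lay 567.56 kb away, and Tnm2 had no promoter peak at Sox2 with DMSO either. In CK1750 with DMSO the Sox2 promoter peak ranked 2196. The region was thus marked in CK1750 with both treatments and in Tnm2 with neither.

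Zbtb10, a zinc finger transcription factor, had the highest rank of the clear CK1750 promoters. Its peak (chr3:9249731-9252055) ranked 306 in CK1750, and the nearest Tnm2 peak lay 215 kb away. With DMSO, Zbtb10 ranked 356 in CK1750 and 21660 in Tnm2, where its score was 83.2. Ptger4 (chr15:5243421-5245759) ranked 1480 with UNC0638 and 1808 with DMSO in CK1750, against 14252 in Tnm2 with DMSO. Foxd1 (chr13:98353660-98356400) ranked 1778 and 1123 in CK1750, against 19703 in Tnm2 with DMSO. At Zbtb10, Ptger4 and Foxd1, Tnm2 therefore had a weaker DMSO peak and no UNC0638 peak.

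Of the other clear CK1750 promoters among the first 10, some shared their peak with Tnm2 outside the window. These included Clic5, a chloride channel gene of alveolar type 1 cells (rank 778), Slc35g3 (1531) and the phosphatase subunit gene Ppp1r27 (2212), whose peak lay in an intron of Mcrip1. The CK1750 peak counted for Slc35g3 covered the TSS of Polr2a, which encodes the largest subunit of RNA polymerase II. Fam71f1 (rank 2217) and Shkbp1 (rank 2394) had peaks that stood apart from Tnm2 peaks, by 28.5 and 90.5 kb. Tnm2 with DMSO had a promoter peak at both, at ranks 5887 and 26622.

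Ly6a encodes Sca-1, the surface antigen that the study used to find TPCs. Its promoter peak in CK1750 with UNC0638 (chr15:74996121-75000751, 4631 bp) ranked 2685 at a score of 1111.22, and Tnm2 had no peak in the Ly6a promoter window. A weak Tnm2 peak, at a score of 52.0 and rank 18282, lay 0.226 kb beyond the edge of the CK1750 peak. With DMSO, Ly6a ranked 1332 in CK1750 and 14884 in Tnm2. CK1750 therefore had the higher Ly6a rank with DMSO and the only Ly6a promoter peak with UNC0638. The study describes TnM2 as a line low in Sca-1. It reports that UNC0638 raised Sca-1 mRNA and surface Sca-1 in adenocarcinoma lines, and lowered H3K9me2 at the Sca-1 TSS. Here the Ly6a promoter peak ranked lower with UNC0638 than with DMSO in CK1750, and it was absent with UNC0638 in Tnm2. Acetylation is a different measure from mRNA or surface protein. The Tnm2 list held 18794 peaks with UNC0638 and 30641 with DMSO, where the Ly6a score was 146.15. A weak peak can be missed in the shorter list, and the difference between treatments at Ly6a was not tested. In the list of 21 Ly6 family and related genes, Ly6e was also CK1750-only, at rank 5793, and Ly6f was Tnm2-only with a CK1750 peak at rank 18888, just below the number kept. Ly6a was the only member that differed in state among 11 TPC markers, of which 5 had a peak in both lines.

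Dlx2 led the clear Tnm2 promoters. Its Tnm2 peak (chr2:71543654-71546283) ranked 639 at a score of 849.28, and the nearest CK1750 peak, of rank 12763, lay 0.893 kb away outside the window. With DMSO, Dlx2 ranked 676 in Tnm2 and 18709 in CK1750. Sspn (chr6:145933724-145934993) ranked 1524 and Cldn18 (chr9:99709411-99710658) ranked 1738 in Tnm2, and with DMSO they ranked 2198 and 2423 there. CK1750 had no promoter peak at Sspn or Cldn18 with either treatment. A strong CK1750 peak of rank 1530 lay 5.27 kb from the Cldn18 peak.

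Eml1, a microtubule-associated protein gene (rank 2243), Ccdc63 (3303) and Fam19a5 (3565) followed among the Tnm2 peaks that stood apart, at 93.1, 19.6 and 24.8 kb from the nearest CK1750 peak. CK1750 had DMSO promoter peaks of ranks 27091 and 26855 at Eml1 and Ccdc63, close to the end of that list, and none at Fam19a5. The peaks at Gng3, Ephx1, Nanos3 and Sept4 overlapped a CK1750 peak outside the window. At Gng3 and Sept4 neither line had a promoter peak with DMSO. Aim2, a sensor of cytosolic DNA, was a further clear Tnm2 promoter (rank 4708), and no CK1750 peak lay within 346 kb of it.

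**Figure D2:**
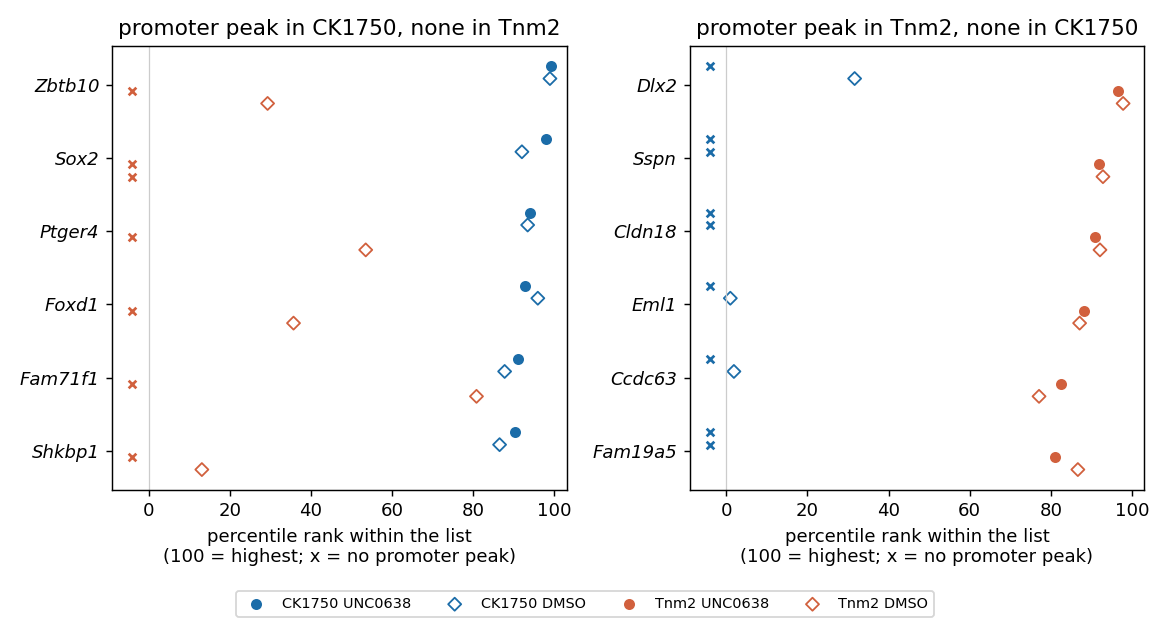
Percentile rank within each of the 4 H3K27ac lists (horizontal axis, 100 is the highest score) for those of the first 10 clear promoters of CK1750 (left) and of Tnm2 (right) whose peak overlapped no peak of the other line, 6 genes each; filled circles are UNC0638, open diamonds DMSO, blue CK1750, orange Tnm2, and a cross marks a list with no peak in the promoter window. The own-line circles all lie above 80, and the other line's DMSO diamonds lie between 1.01 (Eml1) and 80.8 (Fam71f1) where they exist.

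Promoters with a peak in both whole lists numbered 8459, and they were compared by percentile rank within the list (100 is the highest score), as CK1750 minus Tnm2. The median difference was 6.31 points, which depends on the unequal length of the lists, since it was 1.49 points among equal numbers of peaks. A rank at least 50 points higher in CK1750 was seen at 259 promoters (3.06%) and in Tnm2 at 20 (0.236%). Among equal numbers of peaks these counts were 127 and 40. At 8313 promoters with a peak in all 4 lists, the rank differences with UNC0638 and with DMSO had a Pearson r of 0.382. These differences share the cell lines and the promoter sequence but, per the labels, no H3K27ac sample. Whether the peak calls shared a control is not known.

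The promoters with the largest differences toward CK1750 included 3 genes of cell contact and guidance. Ptprm, a receptor phosphatase of cell contacts, ranked 2441 in CK1750 and 18412 in Tnm2, a difference of 88.0 points. The anchoring filament gene Lad1 differed by 86.6 points and the semaphorin receptor gene Plxnb2 by 86.5 points. At Plxnb2 the DMSO difference was only 1.04 points, because Tnm2 ranked 1994 with DMSO and 17087 with UNC0638. Fbxl2, a ubiquitin ligase subunit gene, and Oxct1, an enzyme gene of ketone body use, differed by 78.6 and 78.4 points, and by 52.6 and 18.5 points with DMSO.

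Toward Tnm2, the zinc finger gene Zfp618 had the largest difference, at -79.4 points. It ranked 2700 in Tnm2 and 23078 in CK1750. With DMSO the Zfp618 difference was -7.22 points, since CK1750 then ranked 6723. Csf2ra, a subunit of the receptor for GM-CSF, and Card6 differed by -68.4 and -64.7 points, and by -48.0 and -43.7 points with DMSO. Pdlim4, a PDZ and LIM domain protein gene, differed by -61.0 points and had a Tnm2 peak 6222 bp wide at rank 586, while CK1750 had no Pdlim4 promoter peak with DMSO. Lrmp differed by -60.5 points.

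**Figure D3:**
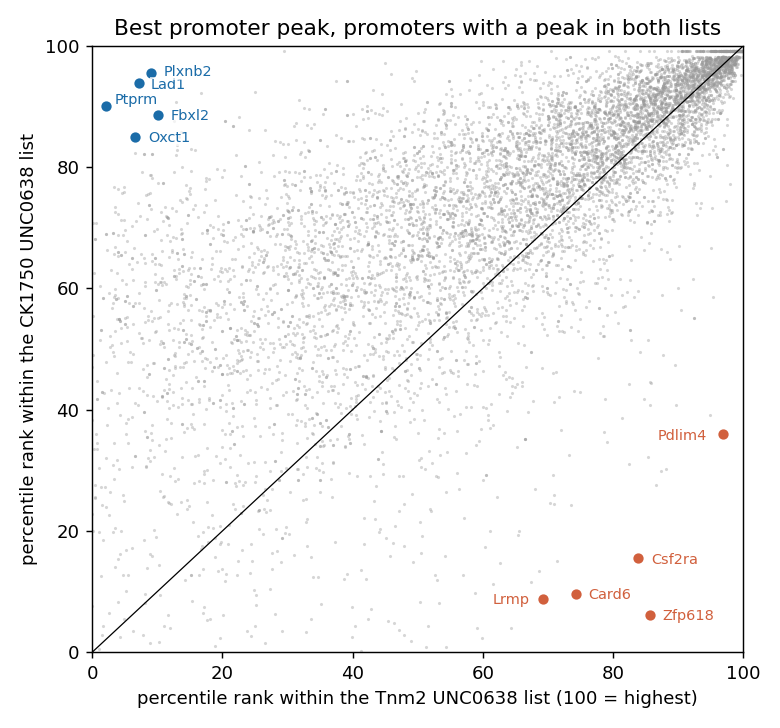
Percentile rank of the best promoter peak in the Tnm2 list (horizontal axis) and in the CK1750 list (vertical axis), both with UNC0638, for 8459 promoters with a peak in both; the line marks equal ranks. Colored points are the 5 promoters with the largest difference in each direction, such as Ptprm at 88.0 points toward CK1750 and Zfp618 at -79.4 points.

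Genes were then grouped by function, and their promoter states were set beside all genes, of which 7.21% were CK1750-only and 2.07% Tnm2-only. In the cell cycle and p53 pathway list, 6 of 25 genes were CK1750-only and 0 were Tnm2-only. The 6 were the kinase inhibitor genes Cdkn1a (rank 5958) and Cdkn2a (6703), the kinase gene Cdk4 (8586) and the cyclin genes Ccna2, Ccnb1 and Ccne2 (11237, 14939 and 13531). Tnm2 with DMSO had promoter peaks at Cdkn1a, Cdkn2a, Cdk4 and Ccne2. The 13 genes with a peak in both had a median rank difference of 6.27 points, beside 6.31 for all. The list thus holds both inhibitors and drivers of division among its CK1750-only members.

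Signaling lists were counted next. Of 31 TGF-beta and BMP pathway genes, 18 had a peak in both lines, 5 were CK1750-only and 0 Tnm2-only. The CK1750-only members were the ligand genes Tgfb3 (rank 7318), Bmp4 (7717), Tgfb2 (9567) and Bmp2 (10802) and the target gene Id2 (2938), whose peak overlapped a Tnm2 peak outside the window. Smad7, an inhibitor that the pathway itself induces, and the targets Id1 and Id3 had peaks in both. These 5 genes had promoter peaks in both lines with DMSO. For the 18 genes with a peak in both whole lists the median rank difference was 3.01 points, beside 6.31 for all genes.

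Of 27 interferon response genes, 4 were CK1750-only and 0 Tnm2-only. These were the transcription factor genes Irf1 (11691), Irf7 (16076) and Stat2 (15197), and Ifi35 (11066). Tnm2 with DMSO had promoter peaks at Irf1 and Ifi35, and none at Irf7 and Stat2. In the Notch list of 18 genes, the target genes Hey1 (6073) and Nrarp (11266) were CK1750-only, and the receptor gene Notch4 was Tnm2-only at rank 11219 with a CK1750 peak at rank 23556. Of 34 Wnt pathway genes only Rnf43, a ubiquitin ligase that removes Wnt receptors, differed in state, and it was CK1750-only at rank 8589.

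Mesenchymal genes were CK1750-only at 3 of 26 and Tnm2-only at 0, beside 7.21 and 2.07% of all genes. Counts this small are not read as a lean of either line. Prrx1 and Snai2, transcription factors of mesenchymal cells, ranked 8005 and 8771 in CK1750, and Col5a1, a fibrillar collagen gene, ranked 12218. Zeb2 was marked in both lines, at rank 440 in CK1750 and 609 in Tnm2. Among 44 collagen genes, the basement membrane genes Col4a5 and Col4a6 were also CK1750-only, and they share 1 peak. Epithelial genes split both ways, with the desmosome genes Dsp and Pkp3 CK1750-only, and the protease inhibitor Spint1, the protease Prss8 and the junction gene Marveld3 Tnm2-only, of 28 genes. These 5 had weak peaks, at scores of 58.6 to 102.

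Lung and gastric genes also split both ways. Among 19 lung lineage transcription factors, 12 had a peak in both, among them Foxa1, Foxa2 and Gata6, while Sox2 and Id2 were CK1750-only and Foxp2 Tnm2-only (rank 8966). Of 14 alveolar type 2 genes, Lpcat1 and Muc1 were CK1750-only, at ranks 13449 and 12632, and the surfactant gene Sftpb was Tnm2-only at rank 13341. Of 20 gastric and gut genes, the transcription factor genes Hnf4g (6949) and Foxa3 (14501) were CK1750-only, and 3 genes were Tnm2-only, among them the gastric protease gene Ctse (12502) and the microvillus gene Vil1 (12550). Hnf4a, a transcription factor of gut epithelium, had a peak in both, at ranks 1575 and 5624. Claudins gave 2 genes to each line, with Cldn6 and Cldn23 in CK1750 and Cldn18 and Cldn2 in Tnm2, of 23.

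Matrix metalloproteinases, which cut the extracellular matrix, and their inhibitors formed 1 of the lists with more Tnm2-only members, 5 of 21 against 1 CK1750-only. The Tnm2-only promoters were the inhibitor genes Timp3 (score 88.1) and Timp1 (56.1) and the protease genes Mmp19 (69.1), Mmp24 (64.0) and Mmp13 (51.3), all of them weak. At Timp1 the CK1750 list held a peak of score 58.4, above the Tnm2 score but ranked below the number kept, so this gene's state rests on the equal numbers. Mmp11 was CK1750-only at a score of 140. Mmp10, the metalloproteinase that the study followed, had no promoter peak in any of the 4 lists and 0 peaks within 50 kb of the gene.

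Chemokine and cytokine genes were Tnm2-only at 4 of 33 and CK1750-only at 1. Il33, an alarmin, had a score of 89.8, Ccl9 96.9, Cxcl3 78.9 and Cx3cl1 71.5 in Tnm2, and Csf2, which encodes GM-CSF, had a score of 130 in CK1750. At Cx3cl1 a CK1750 peak ranked below the number kept was present. Nrf2 pathway genes, which serve defense against oxidants, had 13 of 17 members marked in both lines, Gclc and G6pdx CK1750-only, and Gsta1 and Gsta4 Tnm2-only with CK1750 peaks ranked below the number kept. At Gsta4 the CK1750 score, 75.0, was above the Tnm2 score of 53.1.

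Other lists had few promoters in 1 line only. AP-1 family genes had a peak in both lines at 13 of 17, YAP/TEAD pathway genes at 17 of 19, Ras-MAPK output and feedback genes at 20 of 22 and S100 genes at 10 of 13, with 0 in 1 line only. Keratin genes had 9 of 53 in both and 0 in 1 line only. H3K9 methylation enzymes and readers had 23 of 26 in both, and Suv39h1 and Setdb1, both H3K9 methyltransferase genes, were CK1750-only at ranks 13559 and 18549. With equal numbers, the 16 germline genes and the 18 genes of other cell types had no promoter peak in either line, and in the whole CK1750 list Col1a1 of the latter had one, as given above.

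Single members differed in the other lists. Clic5 of 12 alveolar type 1 and club cell genes was CK1750-only, though its peak overlapped a Tnm2 peak outside the window. With DMSO, Tnm2 had a Clic5 promoter peak at rank 1834. Of 10 genes that the study linked to G9a, Ly6a was CK1750-only, and Ctse and Mmp13 were Tnm2-only. Itgb8 of 25 integrin and laminin genes and Tapbp of 16 antigen presentation genes were CK1750-only. Hoxc6 of 39 Hox genes, the imprinted gene Snrpn of 20 and the neuroendocrine gene Ddc of 16 neuroendocrine and squamous genes were Tnm2-only. The last list also holds Sox2, which was CK1750-only. Among 44 Fox genes, Foxc1, Foxd1, Foxd2 and Foxa3 were CK1750-only and Foxp2 Tnm2-only. Sox21 joined Sox2 among the 19 Sox genes. All 20 widely used genes had a peak in both lines.

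**Figure D4:**
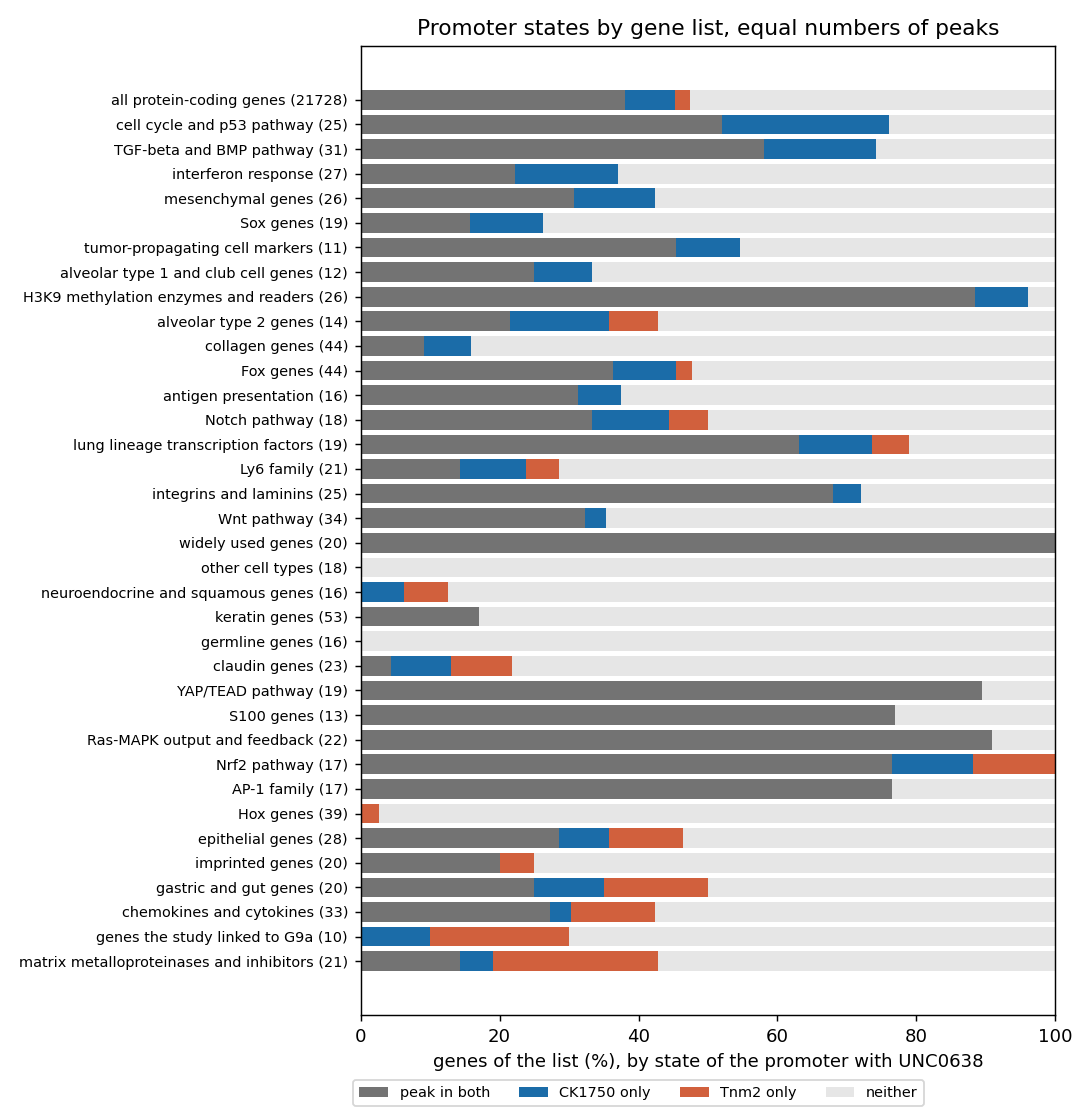
Share of genes in each list (%, horizontal axis) whose promoter had a peak in both lines, in CK1750 only, in Tnm2 only or in neither, with UNC0638 and equal numbers of peaks; list sizes are in parentheses and the top bar is all 21728 protein-coding genes. Lists are ordered by the CK1750-only share minus the Tnm2-only share, from the cell cycle and p53 list (6 and 0 of 25) to the metalloproteinase list (1 and 5 of 21).

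The genes of the enzymes that UNC0638 inhibits had promoter peaks in both lines. Ehmt2 differed by -0.32 and Ehmt1 by 3.21 percentile points between the whole lists. Among equal numbers of peaks the differences were -8.07 and -4.10 points, so that Ehmt1 turned direction. Gapdh, a widely used glycolysis gene, ranked 5332 in CK1750 and 12503 in Tnm2, a difference of 44.9 points, and 28.1 points with DMSO. A widely used promoter can therefore differ in rank by this much between the lists.

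Gene neighbourhoods, the gene with 50 kb on each side, were compared by the number of peaks centered in them among equal numbers. At least 5 more peaks were found in CK1750 at 120 genes (0.552%) and in Tnm2 at 154 genes (0.709%). The DMSO lists differed by at least 1 peak in the same direction at 100 of the 120 and at 112 of the 154, a looser rule than 5 peaks. No share over all genes is set beside these counts, so they are not read as high or low. Neighbours can share peaks, so these genes are not independent of each other. DNA copy number of the lines is unknown and cannot be told apart from acetylation in these counts.

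Tnm2 had the largest neighbourhood difference, at Ank, which encodes a pyrophosphate transporter. Tnm2 had 29 peaks there and CK1750 9, and with DMSO the counts were 43 and 18. Gnaq, a G protein subunit gene, had 20 Tnm2 and 6 CK1750 peaks. It lies on chromosome 19, where Tnm2 had 954 peaks over the whole chromosome and CK1750 720. Tns1, which encodes the focal adhesion protein tensin, had 18 and 4. Cobll1 (16 and 5), the RNA-binding protein gene Rbm47 (18 and 8) and the vascular ligand gene Angpt2 (15 and 6) followed. With DMSO, Tnm2 also had more peaks than CK1750 at all 6. Among the 10000 highest-scoring peaks Ank kept 16 Tnm2 and 5 CK1750 peaks, and Angpt2 3 and 2.

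Toward CK1750, Arid5b, a DNA-binding protein gene, had 13 CK1750 and 2 Tnm2 peaks. Cdk14, a cyclin-dependent kinase gene, had 18 and 7, and Lrmda had 11 and 0. Mrpl33 (16 and 7), Dlgap2 (13 and 5) and Hsf2bp (16 and 8) followed. Among the 10000 highest-scoring peaks of each list the differences were small at several of these genes, with 2 peaks in both lines at Arid5b, 6 CK1750 and 5 Tnm2 peaks at Mrpl33, and 5 and 4 at Hsf2bp. By covered length, CK1750 had 12.5 kb at Arid5b and Tnm2 1.45 kb. Nrp2, a semaphorin and VEGF co-receptor gene, had 8 CK1750 peaks and 0 Tnm2 peaks, and 11 and 0 with DMSO.

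**Figure D5:**
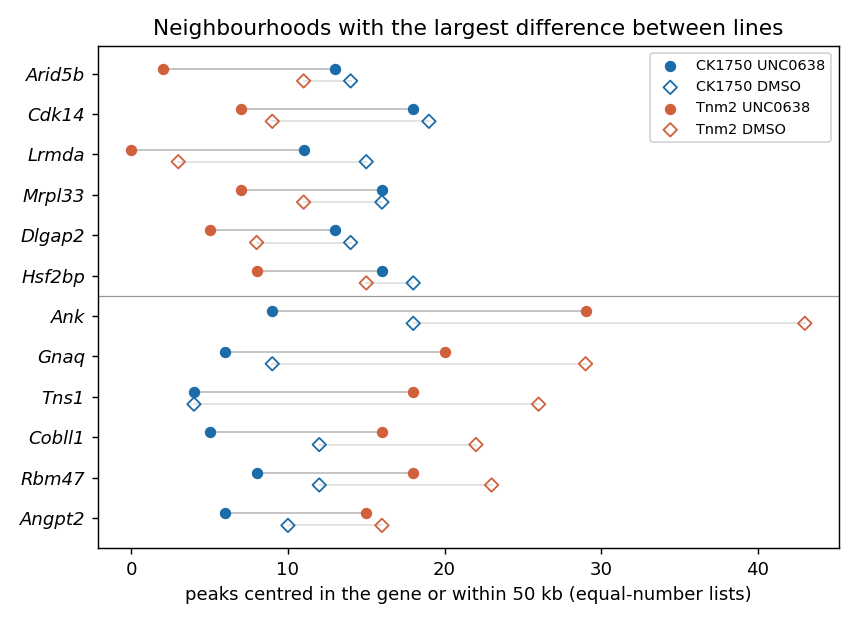
Number of peaks centered in the gene or within 50 kb of it (horizontal axis) for the 6 neighbourhoods per line with the largest difference, in equal-number lists; filled circles are UNC0638, open diamonds DMSO, blue CK1750 and orange Tnm2, and gray lines join the lines under 1 treatment. The DMSO pairs point the same way as the UNC0638 pairs at all 12 genes, from 43 and 18 at Ank to 18 and 15 at Hsf2bp.

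Peaks within 10 kb of each other were joined into clusters and ranked by covered length. Of the top 500 clusters, 339 in CK1750 and 338 in Tnm2 overlapped a top cluster of the other line (67.8 and 67.6%). Clusters without any equal-number peak of Tnm2 numbered 4 in CK1750, at Sox2 (10.3 kb covered), Zfp503 (8.93 kb), Tmem267 (8.04 kb) and Rnf216 (7.28 kb). Clusters without an equal-number peak of CK1750 numbered 3 in Tnm2, located 29.0 kb from Ank (11.5 kb covered), 32.2 kb from Alk (5.74 kb) and in Smpd3 (5.65 kb). The whole CK1750 list held 2 peaks in the cluster near Alk, of scores up to 74.3, and none in the other two.

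The largest cluster differences toward CK1750 were at Tm4sf1, a tetraspanin-like surface protein gene (28.9 kb covered in CK1750 and 14.3 kb in Tnm2), near Camk1g (22.5 and 8.08 kb) and at Mrpl33 and Rbks (18.5 and 6.09 kb). The nonmuscle myosin gene Myh9 (33.1 and 21.4 kb) and the troponin gene Tnnt2 (14.4 and 3.11 kb) came next. Toward Tnm2, they were at Tns1 (14.6 kb in Tnm2 and 0.721 kb in CK1750), at Ank and Otulin (19.4 and 7.84 kb), at Dlx1 and Dlx2 (12.8 and 1.64 kb) and at Igfbp7 (12.9 and 5.77 kb). Some genes were named by more than 1 measure, among them Ank, Tns1 and Dlx2 toward Tnm2 and Sox2, Mrpl33 and Nrp2 toward CK1750. The measures were computed from the same peaks, so 1 of them gives no independent support to another.

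Clear line-only peaks, those among the 5000 highest-scoring with no peak of the other line within 1 kb, numbered 72 in CK1750 (1.44%) and 43 in Tnm2 (0.86%), of which 30 and 17 lay at promoters. All 72 and all 43 had a DMSO peak of their own line, so none was found with UNC0638 alone. A DMSO peak of the other line was present at 54 of the 72 and at 14 of the 43 (75.0 and 32.6%). No share over other peaks of such ranks is set beside these counts, so they are not read as high or low.

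The CK1750 peaks of this kind with the highest scores over 5 kb from any TSS and over 10 kb from a Tnm2 peak lay in an intron of Nrp2 (chr1:62766472-62768828, rank 1333), 12.5 kb from Steap2 (chr5:5707092-5708991, rank 1526) and in an intron of Cradd (chr10:95264200-95266950, rank 1945). Those of Tnm2 lay in introns of Ppfibp2 (chr7:107663328-107666953, rank 1833), Pdlim1 (chr19:40253355-40255901, rank 2439) and Grk5 (chr19:60945434-60947583, rank 2769). Apart from the Steap2 peak, none of the 6 had a DMSO peak of the other line.

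Sequence composition, which the choice of peaks did not use, differed among promoter peaks. In the central 500 bases, Tnm2-only promoter peaks had a median GC content of 54.2%, CK1750-only ones 59.4% and shared ones 63.6% in both lists. The median ratio of observed to expected CpG dinucleotides was 0.336 in Tnm2-only, 0.655 in CK1750-only and about 0.78 in shared promoter peaks. Among promoter peaks ranked beyond 10000, the ratio was 0.323 in Tnm2-only and 0.637 in CK1750-only peaks, and 0.682 and 0.648 in shared peaks of the Tnm2 and CK1750 lists. Weak CK1750-only promoter peaks thus lay close to weak shared ones, and Tnm2-only peaks lay below both. In the RefSeq windows of the kind printed above, the median number of CpG dinucleotides was 14 at 335 Tnm2-only genes, 20 at 1224 CK1750-only genes, 23 at 6530 genes with a peak in both and 5 at 8344 genes with none. Among distal peaks the medians lay between 48.8 and 50% GC. Whether the libraries differed in their recovery of GC-rich DNA was not tested.

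Motif letters were counted on both strands in the central 500 bases of distal peaks, those outside the promoter windows of all annotated genes, coding or not. The AP-1 motif TGANTCA was present in 27.6% of 3063 CK1750-only peaks (interval 26 to 29.2%) and in 23.6% of 3481 Tnm2-only peaks (interval 22.2 to 25.02%), beside 26.2% of all distal peaks. The TEAD motif GGAATG was present in 30.7% (interval 29.1 to 32.3%) and 26.8% (interval 25.4 to 28.3%), beside 30.0% of all. For both motifs the Tnm2-only share was the lower, and the intervals did not overlap. In the central 300 bases they did overlap, with AP-1 at 16.7 and 14.7% and TEAD at 19.7 and 17.5%.

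The motif of HNF4, a factor of gut and liver, leaned the other way, in small numbers. Its letters, CAAAGTCCA, were found in 24 CK1750-only and 49 Tnm2-only distal peaks (0.784 and 1.41%), with intervals that overlapped.

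Motifs of other factors had overlapping intervals in the CK1750-only and Tnm2-only distal peaks. The GATA motif AGATAA was held by 21.03 and 23.2% of them, and the forkhead motif TGTTTAC, read by Foxa1 and Foxa2 among others, by 8.06 and 9.37%. The motif of Runx factors, TGTGGTT, was held by 12.6 and 11.6%. Letters for Nkx2-1, CACTTGA, were held by 6.50 and 6.55%. The Snail and Zeb E-box CAGGTG was held by 30.5 and 31.8%, and the SOX motif CCATTGT by 7.74 and 6.81%. Rare motifs were those of ETS factors, CCGGAAGT, at 0.620 and 0.632%, and of the p53 family, CATGNNNNNNCATG, at 1.44 and 1.29%.

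In the printed promoter windows, GGAATG occurred once at Dlx2 and once at Sspn, and it is present in 14.7% of 32851 promoter windows of that length. CAGGTG occurred once at Dlx2 and is present in 20.2% of these windows. The other motifs searched had no match in the 6 printed windows.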

How the data were processed

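H3K27ac ChIP-seq libraries of CK1750 and Tnm2 were aligned by the authors with Bowtie2 to mm10. MACS 1.4.2 then gave peaks at a P cutoff of 1e-05. Per the labels, the samples of a group share 1 merged list. Which libraries entered it and which control was used are not given in the sources used here. The deposited lists hold each peak's position and a score, which is −10 log10 P from the authors' caller. The lists carry no read totals. Depth is therefore unknown, and the number of pooled lists (1 per group) limits precision. Scores pile up at 3100, where P reached 0, so scores of 3100 or more were treated as tied and ordered by width, a choice made after the scores were seen.

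Positions were converted to 1-based coordinates and checked against GRCm38 chromosome lengths, and 0 of 21 chromosomes had a peak beyond its end. Genes and TSSs came from GENCODE M 21 (21728 protein-coding genes on 20 chromosomes), and symbols matched the RefSeq promoter table for 16433 of them. Sequences were taken for the first 3 named genes per line whose table entry started within 500 bp of the peak. Overlap was at least 1 bp. The functional gene lists, the rule for named genes and the comparison itself were chosen with earlier results of these data known. The genes named were, per line, the 10 clear promoters with the highest scores (genes named Gm plus digits or ending in Rik left out), the 6 largest neighbourhood differences, 3 distal peaks, the 5 largest rank differences, 5 clusters, up to 4 list members per list and line that differed in state, and Ly6a, Mmp10, Ehmt2, Ehmt1, Nkx2-1 and Gapdh. Aim2, Nrp2 as a neighbourhood, further list members that differed in state and list members marked in both lines were named after their values were seen. The SOX motif was added after the data were seen. With 1 list per group no test was run. The overlap code was tested on simulated lists. Near-identical copies of 137 clear peaks were sought with minimap2 2.31, and 2 Tnm2 peaks near Ces2c had 1 (at least 80% covered at 95% identity). Computation was in Python 3.11.15 with scipy 1.17.1, pandas 2.3.3 and numpy 2.4.6. H3K9me2 and input samples were not analysed here. Some genes and 1 motif that these rules name are not reported here.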

Additional observations from a re-analysis of the deposited data

Results flagged for a closer look

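Some measures of the whole lists differed between the lines in opposite directions with UNC0638 and with DMSO. CK1750 had 5807 more peaks than Tnm2 with UNC0638, and with DMSO the difference was -3274 peaks. The covered length differed by 8.66 Mb with UNC0638 and by -3.30 Mb with DMSO, as CK1750 minus Tnm2. The share of peaks at promoters differed by -2.90 percentage points with UNC0638 and by 4.60 points with DMSO. Each group has 1 pooled list of unknown depth, so the difference between treatments was not tested.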

How the results depend on the processing

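Of 78 alternative values for 33 results, 47 moved. The other 31 stayed within 1.5 times a count, or within the counting interval of a share or of a difference between shares, which still let clear promoters apart from any peak of the other line number 28 in place of 42. With the central 300 bases, differences between CK1750-only and Tnm2-only distal peaks shrank from 3.97 to 1.97 points for AP-1, from 3.89 to 2.20 for TEAD and from -2.16 to -0.40 for GATA, and those close to 0 changed sign, from -0.053 to 0.371 for Nkx2-1, from -0.012 to 0.043 for ETS and from 0.144 to -0.103 for the p53 family. No paired analysis was possible because each group has 1 pooled list and no test was run, and for the same reason no replicate could be left out. The share of peaks in 1 line (27.8% in CK1750, 23.7% in Tnm2) was 23.9 and 21.4% among the 10000 highest-scoring peaks, 24.4% for CK1750 among 5000, 39.0 and 17.4% with whole lists, 42.4 and 10.2% with scores of at least 100, 23.8 and 20.1% when a peak within 1 kb counted, 38.1% in both with a reciprocal overlap of 50%, and 24.1 and 22.6% after merging peaks within 1 kb. CK1750 had the higher share in each of these except reciprocal overlap, where the shares are equal by construction. Among the 2000 highest-scoring peaks, clear peaks numbered 7 and 6 and clear promoters 7 and 4, since fewer peaks were considered. With whole lists, Tnm2-only promoters numbered 266. Clusters overlapped at 60.6 and 60.2% with stitching over 5 kb and at 61.0 and 60.8% without promoter peaks. Line-only peaks near a DMSO peak within 1 kb reached 85.6% (own line) and 69.6% (other line) in CK1750, and 75.9 and 34.7% in Tnm2. With DMSO lists of 18794 peaks, chosen after seeing the data, these shares came to 60.8 and 34.8% (CK1750), and to 43.6 and 8.77% (Tnm2). For Tnm2-only peaks by equal numbers they were 71.2 and 31.8%, and with both changes 48.5 and 15.1%. Differing neighbourhoods numbered 362 and 327 with 100 kb, 39 and 64 with 10 kb, and 23 and 33 among 10000 peaks, so that more CK1750 than Tnm2 neighbourhoods were counted only with 100 kb. Of the top 100 neighbourhoods by peak number, 38 and 60 remained by covered length. Rank differences of at least 50 points numbered 407 and 36 by width, and 127 and 40 among equal numbers of peaks, with a median of 1.49 points in place of 6.31. Unknown depth limits every statement about weak peaks, which can be missed in 1 list through small differences in signal.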

Other observations

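By chromosome, the equal-number lists differed most on X, with 354 CK1750 and 260 Tnm2 peaks (ratio 1.36), and on chromosome 19, with 720 and 954 (ratio 0.755). Chromosome 10 had a ratio of 1.24 and chromosome 6 of 0.85. DNA copy number of the lines is unknown, so it cannot be told apart from acetylation in these counts. Among windows of 1 Mb, the difference toward Tnm2 was largest on chromosome 1 from 74 to 75 Mb, around Tns1, with 41 Tnm2 and 20 CK1750 peaks. The window with Rbm47 and Apbb2 on chromosome 5 had 30 and 16, and the window with the Ugt1a genes, which encode enzymes that conjugate drugs and bilirubin, had 25 and 12. Toward CK1750, the window of chromosome 7 from 19 to 20 Mb, with Foxa3, had 53 CK1750 and 33 Tnm2 peaks, and the window with Abca7 and Stk11 on chromosome 10 had 54 and 38.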
